A study of Mus musculus with 12 samples.

Results

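The hair keratins and keratin-associated proteins are the structural proteins of the hair shaft and of the sheath that moulds it. They were taken here as every gene of the expression tables whose symbol is that of a keratin-associated protein (Krtap followed by a number) or of 1 of a named set of follicle keratins, which gave 80 genes of 55487, 58 Krtap genes and 22 keratins. The samples were 12 RNA-seq libraries from full-thickness skin wounds, 6 mm in diameter, made with a punch on the back of male C57BL/6JNarl mice of 6 weeks, each mouse carrying a pair of wounds. All wounds received Pluronic F127 gel, alone in the sham groups and with 10 µM capsaicin (CAP, the pungent agonist of the TRPV1 channel) in the CAP groups, and wounds were taken on day 3 or day 6, with 3 libraries in each of the 4 groups. The labels and methods do not say which libraries, if any, came from the same mouse, so the p-values below measure the spread between these libraries. Each value is in TPM, a relative abundance scaled to transcript length and to the library, so levels of different genes within a library can be set side by side.

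As background, the hair shaft grows from the bulb of the follicle, where its cells fill with hair keratins and then with keratin-associated proteins, whose cysteine-rich or glycine- and tyrosine-rich chains bind the keratin filaments into a hard matrix. Keratins pair as a type I chain with a type II chain. The inner root sheath around the young shaft has its own set (type I Krt25, Krt26, Krt27 and Krt28, type II Krt71, Krt72 and Krt73), and the companion layer outside it carries Krt75. Inner root sheath and shaft are built during the growth phase of the hair cycle and not by the resting follicle.

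The type I keratin genes and the Krtap3 genes lie in a cluster on chromosome 11, the type II keratins on chromosome 15, and Krtap8-1 and Krtap11-1 on chromosome 16 (GRCm38 coordinates of GENCODE M21, which match the tables for all 80 genes). Krt25 spans chr11:99315516-99322951 and Krt71 spans chr15:101733949-101743109. Krtap3-3 at chr11:99550130-99550865, Krtap3-2 at chr11:99555823-99556853 and Krtap3-1 at chr11:99566027-99566630 are neighbours on the minus strand. Krt84 at chr15:101525026-101532820 and Krt75 at chr15:101563345-101573904 lie on the minus strand on either side of Krt82, another member. Krt25, Krt27, Krt71 and Krt73 were all above 0.3 TPM in the same 4 libraries, and so was Krt28, whose stretch is not shown. The stretches before the start sites of the first 4 are shown with those of Krtap3-2 and Krtap3-3, the keratin-associated proteins with the highest levels. Each is the 250 bases before the RefSeq start (GRCm38.p6), 5′ to 3′ on the minus strand of the chromosome, and capitals mark every match on either strand to 1 of 5 short motifs. These are TATAAA, the box that places the start of transcription, AGATAA, which factors of the Gata family bind, CTTTGA, a site of the Lef and Tcf factors, GACGC, and, as a pattern with any base in the middle, TGANTCA, a site of the Fos and Jun factors. The regions are chr11:99322952-99323201 (Krt25), chr11:99351119-99351368 (Krt27), chr15:101743098-101743347 (Krt71), chr15:101802361-101802610 (Krt73), chr11:99556854-99557103 (Krtap3-2) and chr11:99550864-99551113 (Krtap3-3).
Krt25: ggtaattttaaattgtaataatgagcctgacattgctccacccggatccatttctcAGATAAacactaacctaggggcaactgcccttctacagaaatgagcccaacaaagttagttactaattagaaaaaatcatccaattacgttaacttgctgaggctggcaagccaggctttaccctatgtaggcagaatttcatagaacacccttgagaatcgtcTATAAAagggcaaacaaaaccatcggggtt
Krt27: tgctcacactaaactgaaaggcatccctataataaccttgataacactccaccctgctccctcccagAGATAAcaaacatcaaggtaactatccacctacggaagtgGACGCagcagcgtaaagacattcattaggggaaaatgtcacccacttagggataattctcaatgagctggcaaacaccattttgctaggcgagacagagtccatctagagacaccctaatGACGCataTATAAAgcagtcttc
Krt71: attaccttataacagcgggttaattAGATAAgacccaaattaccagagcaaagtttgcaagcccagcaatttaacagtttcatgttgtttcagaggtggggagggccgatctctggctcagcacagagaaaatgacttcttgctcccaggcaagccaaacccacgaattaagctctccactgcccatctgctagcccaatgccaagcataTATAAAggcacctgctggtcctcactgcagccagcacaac
Krt73: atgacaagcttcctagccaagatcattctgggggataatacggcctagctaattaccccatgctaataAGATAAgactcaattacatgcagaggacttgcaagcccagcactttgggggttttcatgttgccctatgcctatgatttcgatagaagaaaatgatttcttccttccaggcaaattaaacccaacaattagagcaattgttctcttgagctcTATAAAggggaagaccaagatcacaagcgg
Krtap3-2: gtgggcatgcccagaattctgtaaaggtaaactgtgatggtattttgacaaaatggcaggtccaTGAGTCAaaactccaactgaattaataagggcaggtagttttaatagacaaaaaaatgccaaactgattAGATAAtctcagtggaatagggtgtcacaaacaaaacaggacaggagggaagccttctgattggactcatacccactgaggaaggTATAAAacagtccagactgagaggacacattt
Krtap3-3: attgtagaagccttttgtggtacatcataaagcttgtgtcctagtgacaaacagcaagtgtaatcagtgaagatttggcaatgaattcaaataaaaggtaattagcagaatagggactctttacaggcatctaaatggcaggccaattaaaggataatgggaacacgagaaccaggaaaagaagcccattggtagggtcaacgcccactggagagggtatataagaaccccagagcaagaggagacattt
TATAAA was found before 14 of the 17 members with a promoter in the table, including all 7 inner root sheath keratins, and before 12.4% of 32851 mouse promoters. In Krt25 and Krt73 it lay 30 to 25 bases before the start. In Krt72 and Krt84 the only match was on the opposite strand, 203 to 198 and 206 to 201 bases before the start. AGATAA was found in Krt25, Krt27, Krt71 and Krt73, 4 of the 7 inner root sheath keratins, and also in Krtap3-2, against 9.99% of all promoters. The inner root sheath keratins shown are thus those with this match, and Krt28, high in the same libraries, had none. TGANTCA was found only in Krtap3-2 among the 17, against 6.75% of all promoters, CTTTGA in 4 members against 13.8% and GACGC in 3 members against 22.6%. None of the 5 was found in the stretch before Krtap3-3. These matches describe the letters of the windows and no more.

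Most of the 80 genes were at or near 0 in these samples of wound and surrounding tissue. A group mean of at least 0.3 TPM, the level used as the lower limit throughout, was reached in at least 1 group by 20 members (25.0%), against 36.5% of all genes. All 8 inner root sheath and companion layer keratins reached it, as did 7 of the 14 shaft keratins, 4 of 21 high sulfur and 1 of 15 high glycine-tyrosine keratin-associated proteins, and 0 of the 21 ultrahigh sulfur ones. The classes of the keratin-associated proteins were set from the composition of the translated genes. Ultrahigh sulfur had at least 30% cysteine, and high glycine-tyrosine at least 35% of those residues. High sulfur was the remainder of the genes with a protein sequence, with 4% to 29.8% cysteine, so it has no lower limit of its own. Only Krt75, Krt84, Krt32, Krtap3-2 and Krtap3-3 reached the level in all 4 groups. Of the 60 members below it in every group, 24, all of them keratin-associated proteins, were listed at 0 in all 12 libraries, and 18 reached it in at least 1 library, the highest value being 0.832 TPM. All members together made up 0.00165% to 0.00897% of a library's TPM.

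**Figure D1:**
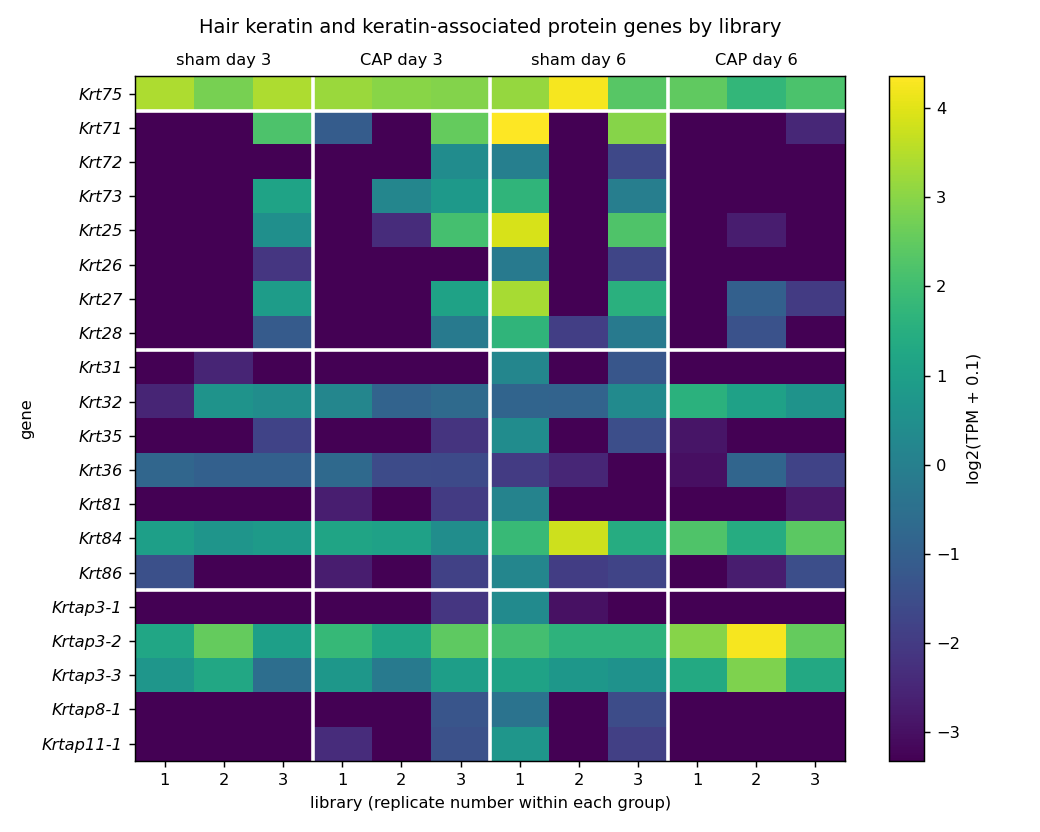
Colour gives log2(TPM + 0.1) of the 20 members that reached 0.3 TPM in a group mean, with genes in rows (companion layer, inner root sheath, shaft keratins and keratin-associated proteins from top to bottom) and the 12 libraries in columns. Krt75, Krt84, Krtap3-2 and Krtap3-3 are seen in every library, while the inner root sheath keratins are high in 4 libraries.

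The tables give no read counts, so the depth is unknown and no counting interval is given. Each library had 18533 to 19325 genes at 0.3 TPM or more, and the correlation of log2 values over genes, which are not independent replicates, was 0.956 to 0.975 within groups. None of 12 housekeeping genes was listed at 0 in any library. The libraries carried the markers of wounded skin: the summed TPM of 8 epidermal keratinocyte genes was 28502 to 46943 in sham and 24792 to 45967 in CAP at day 3, and 26352 to 29933 in sham and 46132 to 97539 in CAP at day 6, and the wound edge keratins Krt6a, Krt6b, Krt16 and Krt17 summed to between 6272 and 35460 TPM. In such bulk samples, fewer cells of a type and less RNA per cell cannot be told apart.

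The summed level of the inner root sheath keratins was high in 4 libraries and low in the other 8, and this split ran across the groups. Their summed level was 53.1 TPM in sham day 6 replicate 1, 17.3 TPM in sham day 6 replicate 3, 15.6 TPM in CAP day 3 replicate 3 and 10.2 TPM in sham day 3 replicate 3. In the other 8 libraries it was at most 1.16 TPM, and 3 of these had all 7 genes listed at 0. The 3 CAP day 6 libraries, with sums of 0.234 TPM, 0.745 TPM and all 7 genes listed at 0, were all among the low ones, and so was sham day 6 replicate 2, with 0.17 TPM. The sham and CAP libraries of day 6 therefore overlapped.

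**Figure D2:**
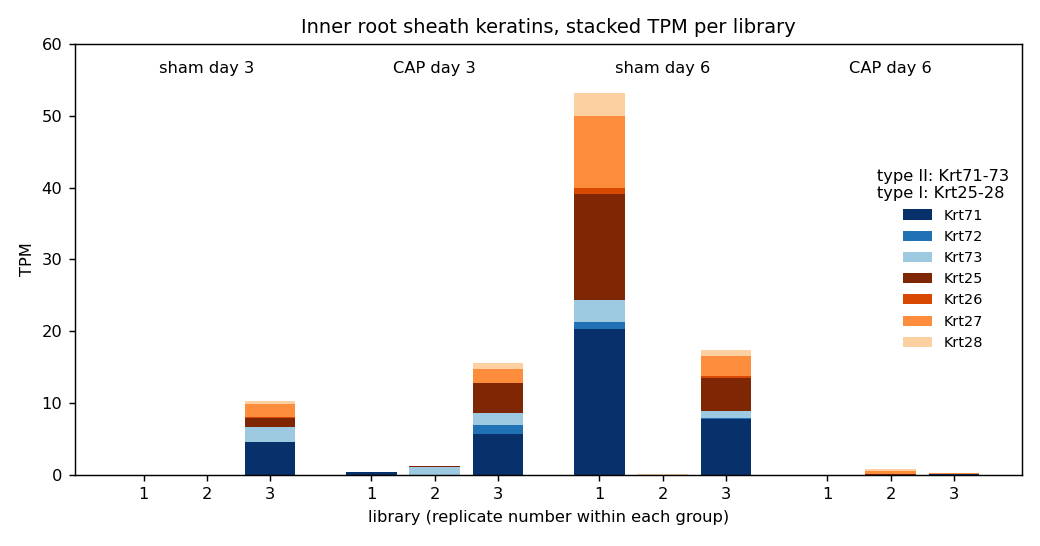
Stacked bars give the TPM of the 7 inner root sheath keratins in each of the 12 libraries, with type II genes in blue and type I genes in orange. The 4 high libraries reach 53.1, 17.3, 15.6 and 10.2 TPM, and the other 8 stay at or below 1.16 TPM.

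Krt71, the main type II keratin of the inner root sheath, had the highest level of the 7 in each of the 4 high libraries, 20.3 TPM in sham day 6 replicate 1, 7.75 TPM in sham day 6 replicate 3, 5.68 TPM in CAP day 3 replicate 3 and 4.5 TPM in sham day 3 replicate 3. It was 0.374 TPM in CAP day 3 replicate 1, 0.0824 TPM in CAP day 6 replicate 3 and listed at 0 in the other 6 libraries. Krt25, a type I partner, was 14.7, 4.67, 4.17 and 1.33 TPM in the same 4 libraries, in the same order, and at most 0.0968 TPM elsewhere. Both genes were thus high in the same 4 libraries.

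Krt27, another type I chain, was 10.1 TPM in sham day 6 replicate 1, 2.82 TPM in sham day 6 replicate 3, 2.03 TPM in CAP day 3 replicate 3 and 1.8 TPM in sham day 3 replicate 3, and was 0.406 TPM in CAP day 6 replicate 2. Krt73, a type II keratin of the sheath cuticle, was also found in CAP day 3 replicate 2, at 1.06 TPM, where Krt71, Krt27, Krt28, Krt72 and Krt26 were listed at 0. It was 3.12 TPM in sham day 6 replicate 1, 2.1 TPM in sham day 3 replicate 3, 1.64 TPM in CAP day 3 replicate 3 and 0.868 TPM in sham day 6 replicate 3, so its order over the high libraries was not that of Krt71. Krt28 and Krt26 reached 3.15 TPM and 0.804 TPM in sham day 6 replicate 1, and Krt72 reached 1.24 TPM in CAP day 3 replicate 3. Krt72 was listed at 0 in sham day 3 replicate 3 and Krt26 in CAP day 3 replicate 3, where the other 6 genes were found.

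Type I and type II chains were close to balance in the high libraries other than sham day 3 replicate 3, where type II was higher. Krt25, Krt26, Krt27 and Krt28 held 54.2% of the summed level in sham day 6 replicate 1, 49.0% in sham day 6 replicate 3, 45.0% in CAP day 3 replicate 3 and 35.4% in sham day 3 replicate 3. Krt71 alone held 36.5% to 44.7% of it. Krt25 and Krt27 share 15.7% and 17.8% of their 31-base words with other genes, mostly with each other, so the split between these 2 genes is less certain than their sum.

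Many shaft genes that were near 0 in most libraries were highest in 1 sham library. Of the 20 members at 0.3 TPM or more in a group mean, 13 had their highest level in sham day 6 replicate 1. Of the 18 others that reached 0.3 TPM in at least 1 library, 14 did. Krt26, Krt28, Krt31, Krt35, Krt81, Krt86, Krtap3-1, Krtap8-1 and Krtap11-1 reached the limit only in the sham day 6 mean, to which this library gave most. The choice of members thus set part of these counts, which are a description. The share of all genes highest in sham day 6 replicate 1 was not computed. In that library 34 of the 80 members reached 0.3 TPM, against 16 in CAP day 3 replicate 3, 11 in sham day 3 replicate 3 and in sham day 6 replicate 3, and 5 to 8 in the other 8 libraries.

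Krt35, a type I keratin of the early shaft, was 1.24 TPM in sham day 6 replicate 1 and at most 0.261 TPM elsewhere. Krt31, a type I cortex keratin, was 1.05 TPM there, 0.315 TPM in sham day 6 replicate 3, 0.0741 TPM in sham day 3 replicate 2 and listed at 0 in the other 9 libraries. The type II keratins Krt86 and Krt81 were 1.05 TPM and 0.992 TPM in sham day 6 replicate 1 and at most 0.266 TPM and 0.151 TPM elsewhere. These 4 shaft keratins thus had their maximum in the same sham library, and they reached the limit only by its group mean. The other shaft keratins above the limit were highest elsewhere. Krt32 was highest in CAP day 6 replicate 1 (2.92 TPM), Krt36 in CAP day 3 replicate 1 (0.522 TPM) and Krt84 in sham day 6 replicate 2 (13.5 TPM). Krt86 shares 50.0% of its 31-base words, mostly with Krt81, and Krt31 shares 38.9%, mostly with Krt34, so the reads of these genes may be split between copies.

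The keratin-associated proteins Krtap11-1, Krtap3-1 and Krtap8-1, the last of the high glycine-tyrosine class, were also highest in sham day 6 replicate 1. Krtap11-1 was 1.55 TPM in sham day 6 replicate 1, 0.278 TPM in CAP day 3 replicate 3, 0.172 TPM in sham day 6 replicate 3, 0.0949 TPM in CAP day 3 replicate 1 and listed at 0 in the other 8. Krtap3-1 was 1.18 TPM and Krtap8-1 was 0.662 TPM in that sham library, and they were at most 0.13 TPM and 0.306 TPM elsewhere. All 3 were listed at 0 in every CAP day 6 library and in every sham day 3 library. The 21 ultrahigh sulfur proteins, the most cysteine-rich class, summed to 3.75 TPM in sham day 6 replicate 1 and to between 0.0794 and 1.3 TPM in the other libraries.

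Other proteins of the sheath and shaft were measured beside them, and their highest libraries were mixed. Prss53, Hephl1, Liph, Padi1, Tgm3 and Tchhl1 were highest in libraries other than sham day 6 replicate 1. Tchh, S100a3, Lpar6, Padi3, Dsg4 and Gprc5d were highest in that library. Tchh (trichohyalin), which fills inner root sheath cells, was 44.5 TPM in sham day 6 replicate 1 and 3.43 to 16.7 TPM in the other 11 libraries, and S100a3, a calcium-binding protein of the hair cuticle, was 2.66 TPM there and at most 1.14 TPM elsewhere. Tchh did not separate the other 3 libraries with inner root sheath keratins, which had 12.7 TPM (sham day 3 replicate 3), 10.4 TPM (CAP day 3 replicate 3) and 12.7 TPM (sham day 6 replicate 3), from the rest. Shh, the signal of the growing bulb, was at most 0.19 TPM in any library and Lef1 at most 0.58 TPM, both highest in sham day 6 replicate 1. All other shaft regulators measured were highest in other libraries. Hoxc13 was highest in sham day 3 replicate 2 (1.98 TPM), Msx2 in CAP day 3 replicate 2 (2.87 TPM) and Foxn1 in CAP day 3 replicate 1 (15.2 TPM).

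Whether CAP changed these genes at day 6 was asked of the members found in every library, and their directions were mixed. Krtap3-2, a high sulfur protein, and Krt32, a type I keratin of the shaft cuticle, were higher in CAP than in sham wounds, and Krt75 of the companion layer was lower. Each test is limma's moderated test on log2(TPM + 0.1), over genes whose mean reached 0.3 TPM in each of the compared groups, and a gene was called at an unadjusted p under 0.05 with at least a 2-fold difference on that scale, the threshold of the study. Of the 5 members tested, 2 were called higher and 1 lower, against 1.46% of 18323 genes called higher and 2.34% called lower. The median difference of the 5 members was 1.03, against -0.12 over all genes tested. No member, and 0 genes in all, had an adjusted p under 0.05 in limma with Benjamini-Hochberg adjustment, while 3517 genes (19.2%) had an unadjusted p under 0.05.

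Krtap3-2 was 4.07, 2.99 and 3.01 TPM in the 3 sham and 7.74, 19.1 and 5.67 TPM in the 3 CAP libraries. The CAP libraries were all above the sham ones, by 1.48 ± 0.43 (SE) on the log2 scale (unadjusted p = 0.0108, adjusted p = 0.212, limma). The library CAP day 6 replicate 2 carried the highest level, and without it the difference was 0.97, under the 2-fold limit.

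Krt32 was 0.46, 0.449 and 1.18 TPM in the sham and 2.92, 1.99 and 1.44 TPM in the CAP libraries, again with no overlap. The difference was 1.54 ± 0.44 (SE) on the log2 scale (unadjusted p = 0.00986, adjusted p = 0.210, limma). Groups that did not overlap with CAP higher were found for 8.01% of all genes, and the exact permutation test of 3 against 3 libraries cannot go below p = 0.1, the value of both genes. Krt32 overlaps an antisense gene, Gm11571, on the opposite strand, which was listed at 0 in all 12 libraries. The sources used here do not state whether strand was used in counting.

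Krtap3-3, the neighbour of Krtap3-2, had 2.05, 1.59 and 1.4 TPM in sham and 2.45, 7.19 and 2.36 TPM in CAP libraries. These did not overlap either, but the difference of 1.03 ± 0.44 (SE) on the log2 scale missed the threshold (unadjusted p = 0.0544, limma). It passed without CAP day 6 replicate 1 (1.27) or replicate 3 (1.30). Krtap3-3 and Krtap3-2 share 42.9% and 30.9% of their 31-base words, mostly with each other. Their sum, which does not depend on that split, was 5.04 ± 0.943 TPM (SD, n = 3) in sham and 14.8 ± 9.98 TPM in CAP wounds at day 6, and Krtap3-2 held 59.3% to 76.3% of it over the 12 libraries.

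Krt75 was 8.7, 18.9 and 5.03 TPM in sham and 5.47, 3.31 and 4.41 TPM in CAP libraries, so the highest CAP library lay above the lowest sham one. The difference of -1.11 ± 0.46 (SE) on the log2 scale passed the threshold narrowly (unadjusted p = 0.0475, adjusted p = 0.256, limma). It remained called without sham day 6 replicate 3, was no longer called without any other of the 6 libraries, and without sham day 6 replicate 2 it was -0.61. Krt84, a type II hair keratin, was 3.51, 13.5 and 2.59 TPM in sham and 4.58, 2.6 and 5.24 TPM in CAP libraries and differed by -0.32 (95% interval -1.76 to 1.11). The same library, sham day 6 replicate 2, held the highest level of both Krt75 and Krt84.

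**Figure D3:**
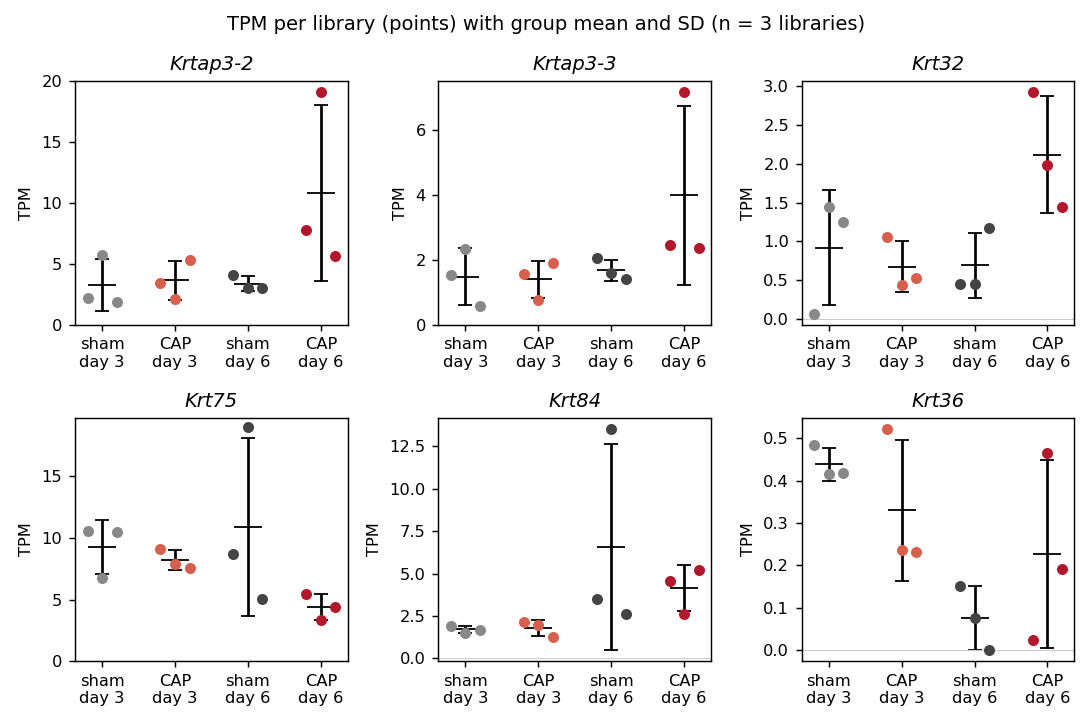
Points give the TPM of single libraries for 6 members in the 4 groups, with the group mean and SD (n = 3). In CAP day 6 wounds all 3 libraries lie above the 3 sham day 6 libraries for Krtap3-2, Krtap3-3 and Krt32, while Krt75 and Krt84 each have 1 high sham day 6 library, at 18.9 and 13.5 TPM.

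Markers of the epidermis rose beside Krtap3-2 and Krt32. Of 8 epidermal keratinocyte genes, 3 were called higher in CAP at day 6, Krt10 by 1.62, Krt1 by 1.86 and Lor by 1.44 on the log2 scale, and 0 lower. Krt10, the type I keratin of the differentiated epidermis, was 7432, 7490 and 8321 TPM in sham and 19544, 40801 and 16989 TPM in CAP libraries, so CAP day 6 replicate 2 was the highest library for Krt10 as for Krtap3-2 and Krtap3-3. All 8 epidermal genes passed the filter in every comparison. The part of the epidermal content in the difference of Krtap3-2 and Krt32 was not tested.

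Within the follicle lists, the counts differed by list. Among 12 shaft and sheath proteins other than keratins, 10 were tested, Padi1 and Tgm3 (enzymes also used by the epidermis) were called higher by 2.27 and 1.15, and Tchh was called lower by -1.96 with no overlap. Without overlap, lower levels in CAP were found for 18.0% of all genes. Of 8 dermal papilla genes 3 were tested and called lower, Crabp1 by -2.10, Alpl by -1.40 and Sox18 by -1.04, while Corin, a defining marker of the papilla, was at most 0.1 TPM in every library. Among 10 regulators of the shaft (Hoxc13, Foxn1, Dlx3, Gata3 and others) 8 were tested and 0 called, and of 7 bulge genes Krt15 was called higher by 1.21. The hair pigmentation, sebaceous gland and wound edge lists had 0 calls of 6, 5 and 4 genes tested, the skeletal muscle list 1 lower of 6, the adipocyte list 1 higher of 5, and the neutrophil and macrophage list 0 of 6.

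The inner root sheath keratins did not enter that test, because their CAP mean at day 6 was under 0.3 TPM. With the filter met in at least 1 of the groups, Krt28, Krt25 and Krt71 passed the threshold with CAP lower, as did 2.91% of 19667 genes. They entered by their sham level alone, so the filter set the direction and these values are a description, not evidence of a lower level in CAP. Their groups overlapped, since sham day 6 replicate 2 had Krt25 and Krt71 listed at 0.

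At day 3, CAP and sham wounds were compared over 10 members, and 0 were called in either direction, against 0.426% of 18330 genes called higher and 1.16% called lower. In all, 1210 genes (6.60%) passed an unadjusted p of 0.05 in limma and 3 genes (0.0164%) an adjusted one. The groups overlapped for all 10 members, while 2.86% of all genes had CAP libraries all higher and 8.75% all lower. Krt75 was 10.5, 6.76 and 10.4 TPM in sham and 9.09, 7.91 and 7.59 TPM in CAP libraries, a difference of -0.15 (95% interval -0.62 to 0.33 on the log2 scale). Krtap3-2 was 2.23, 5.75 and 1.9 TPM in sham and 3.43, 2.15 and 5.32 TPM in CAP libraries, a difference of 0.22 (95% interval -0.94 to 1.38). The intervals of the inner root sheath keratins were wide, from -3.77 to 5.49 for Krt71, which was 4.5 TPM in 1 sham library and listed at 0 in the other two, and 0.374 TPM, 5.68 TPM and listed at 0 in the CAP libraries. None of the 11 marker lists had a called gene at day 3.

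Between the days, Krt84 was higher at day 6 in both treatments. In sham wounds it went from 1.93, 1.5 and 1.7 TPM to 3.51, 13.5 and 2.59 TPM, with no overlap, a difference of 1.50 ± 0.56 (SE) on the log2 scale (unadjusted p = 0.0311, adjusted p = 0.248, limma). This was the only call among 9 members tested, against 2.13% of 18368 genes higher and 1.61% lower. Libraries that did not overlap, with day 6 higher, were found for 10.8% of genes, and an adjusted p under 0.05 in limma for 2.29%. Without sham day 6 replicate 2 the difference was 0.79, and the call was also lost without sham day 3 replicate 2 or replicate 3. Krt25, Krt71 and Krt27 had differences of 2.98, 2.81 and 2.43 with 95% intervals that included 0, and they were called only when sham day 6 replicate 2 was left out.

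Krt36, a type I keratin, was 0.483, 0.416 and 0.417 TPM in the day 3 sham libraries. In the day 6 ones it was 0.152 TPM, 0.0768 TPM and listed at 0. These libraries did not overlap, as was so in that direction for 10.6% of the 18368 genes tested. The day 6 mean of 0.0762 TPM kept Krt36 out of the test and so out of that set. With the filter met in at least 1 group it passed the threshold with day 6 lower, as did 2.15% of 19800 genes, but it entered by its day 3 level alone, so this is a description.

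In CAP wounds, 4 of 5 members tested were called higher at day 6 than at day 3, against 1.27% of 18202 genes, and 0 lower, against 1.52%. They were Krt32, a rise of 1.54 ± 0.40 (SE) on the log2 scale (unadjusted p = 0.00721, adjusted p = 0.306, limma), Krtap3-2 with 1.45 ± 0.51, Krtap3-3 with 1.33 ± 0.52 and Krt84 with 1.13 ± 0.34. Krt32 had been 1.05, 0.44 and 0.533 TPM at day 3, and Krtap3-3 1.56, 0.773 and 1.89 TPM, all below their CAP day 6 libraries. Krt84 went from 2.15, 2 and 1.26 TPM to 4.58, 2.6 and 5.24 TPM. None of the 4 differences had an adjusted p under 0.05 in limma, where 1 gene (0.00549%) did, and the libraries of the 2 days did not overlap for any of them, as was so for 8.05% of all genes. This comparison shares its day 6 CAP libraries with the comparison of treatments, so the rise of Krtap3-2 and Krt32 is not a second, separate observation. Without CAP day 6 replicate 2, Krtap3-2 and Krtap3-3 were no longer called, at 0.94 and 0.82, nor were they without CAP day 3 replicate 1 or replicate 2. Krt84 was not called without CAP day 3 replicate 3 (0.91) or CAP day 6 replicate 3 (0.94).

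Krt75 fell by 0.91 on the log2 scale in CAP wounds between the days (SE 0.21, unadjusted p = 0.00403, limma), with all day 6 libraries below all day 3 libraries (9.63% of all genes), but by less than 2-fold, so it was not called. In sham wounds its difference was 0.05 ± 0.45 (SE). Beside these genes, 3 of 8 epidermal genes were called higher at day 6 in CAP wounds, Krt10 by 1.76, Krt1 by 1.90 and Lor by 1.50, and in sham wounds 0 of 8 were called. The wound edge keratins, which keratinocytes switch on after injury, went the other way in both treatments. In CAP wounds 3 of 4 were called lower at day 6, Krt6b by -1.55, Krt6a by -1.32 and Krt17 by -1.20, and in sham wounds 2 of 4, Krt6b by -1.42 and Krt6a by -1.23, with adjusted p of 0.0242 and 0.0327 in limma. Single genes of other lists were also called, Sox18 higher and Myh4 lower in sham, and Padi1, Krt15 and Elovl3 higher and Sox9, Myh4 and S100a8 lower in CAP wounds. The part of these changes in the day differences of Krt32, Krt84, Krtap3-2 and Krtap3-3 was not tested.

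**Figure D4:**
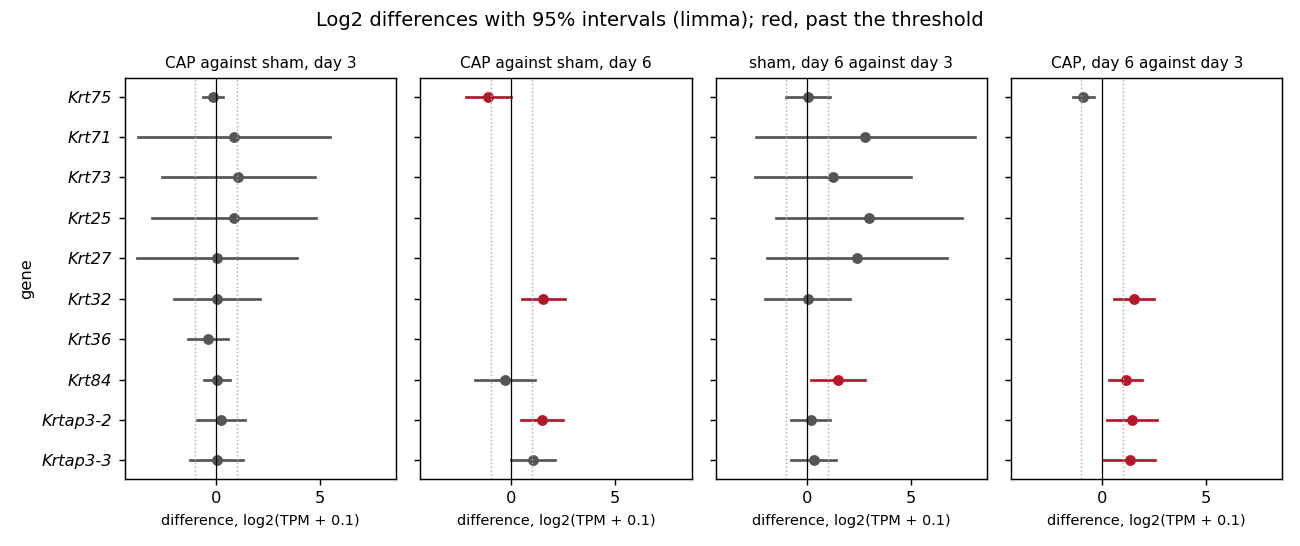
Points give the log2(TPM + 0.1) difference of each member tested in 4 comparisons, with limma's 95% interval as a line and red for those past the threshold of unadjusted p and 2-fold size. The dotted lines mark a 2-fold difference. The calls are Krt75 lower and Krt32 and Krtap3-2 higher in CAP at day 6, Krt84 higher at day 6 in sham, and Krt32, Krt84, Krtap3-2 and Krtap3-3 higher at day 6 in CAP wounds.

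Whether the effect of CAP differed between the days was tested directly for the 20 members, as the day 6 difference less the day 3 difference. The values of Krtap3-2 (1.26, 95% interval -0.31 to 2.83), Krt32 (1.50, -0.81 to 3.81) and Krt75 (-0.96, -2.17 to 0.25) did not pass the test, so the treatment effects of these genes were not shown to differ between day 3 and day 6. The inner root sheath keratins had values from -5.22 (Krt71) to -1.19 (Krt26), none of them called. Leaving out 1 library changed this for some members. Krt32 passed without sham day 3 replicate 1 (2.52, unadjusted p = 0.00274, limma). Krt75 passed without sham day 6 replicate 3 (-1.41) and Krtap3-2 without CAP day 6 replicate 3 (1.62). Krt25 and Krt71 passed without sham day 6 replicate 2 (-7.04 and -7.55) or sham day 3 replicate 3 (-6.19 and -7.07). Their CAP day 6 libraries were at most 0.0524 and 0.0824 TPM, so the sizes for Krt25 and Krt71 depend on the constant added before taking logs. Krtap11-1 was the only call (-2.79, unadjusted p = 0.0464, adjusted p = 0.440, limma), among 2.73% of 20267 genes with a smaller and 2.18% with a greater effect at day 6. Krtap11-1 entered the test only by its sham day 6 mean of 0.573 TPM, and its sham day 3 and CAP day 6 libraries were all listed at 0. Its value thus depends on the filter and on the constant added before taking logs, gives no fold and is not evidence of a different effect. No gene had an adjusted p under 0.05 in this test, and 2292 genes had an unadjusted p under 0.05.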

How the data were processed

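The 12 libraries of wound RNA came from paired-end sequencing, and SureSelect XT HS2 mRNA reagents served for library construction. The authors trimmed reads with Trimmomatic 0.36, per the submitters' processing notes, which also name bcl2fastq and the mm10 build, and estimated levels with StringTie. The aligner and annotation used were not given in the sources used here. The deposited values are TPM, in 1 table per library with 55487 genes, and 0.0001 stands in place of 0. TPM hold no counts, so the depth is unknown, and a small change of a few strongly expressed genes moves all others.

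Samples were grouped by their titles. The 5 comparisons (CAP against sham at each day, day 6 against day 3 in each treatment, and the difference of the CAP effect between the days) were tested on log2(TPM + 0.1) with limma 3.58.1 (trend, R 4.3.3) across the genes whose mean reached 0.3 TPM in each group compared, or in 1 of the 4 groups for the last. Adding 0.1 understates the fold change of low genes. Calls needed an unadjusted p under 0.05 and a 2-fold difference, and p-values were adjusted by Benjamini-Hochberg over all genes tested. All tests were two-sided. Single genes were also compared with exact permutation tests over libraries. The script was tested on simulated data.

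Named genes were the 4 members with the highest mean TPM in each class, the 3 with the smallest p among those called in each comparison and direction, and others whose values were seen first, among them Krt28, Krt72, Krt73, Krt26 and the genes of the lists. The members, their classes and the 11 marker lists were chosen with earlier results of these data known. Sequence sharing is the share of a gene's 31-base words in GENCODE M21 transcripts found in other genes. Promoters are those of RefSeq (GRCm38.p6), which held 17 of the 20 members. The alternatives were a pseudocount of 1 TPM, no filter or a filter in at least 1 group, a joint fit, a replicate block, median-ratio scaling and leaving out each library, and a pseudocount of 0.01 TPM was added after seeing the data. Figures were drawn with matplotlib 3.10.9.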

Additional observations from a re-analysis of the deposited data

Results flagged for a closer look

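Krtap11-1, a high sulfur protein of the hair cortex, was singled out because its CAP effect at day 6 and at day 3 differed by a test of that difference, -2.79 on the log2(TPM + 0.1) scale (95% interval -5.52 to -0.05, unadjusted p = 0.0464, adjusted p = 0.440, limma). The gene passed the filter only by the sham day 6 group, where it was high, so the call is a description and not evidence of a different effect. The value rested on 1.55 TPM in sham day 6 replicate 1, with the 3 sham day 3 and the 3 CAP day 6 libraries all listed at 0. It was -0.69 with a pseudocount of 1 TPM and was not called. The call remained without CAP day 3 replicate 2 or sham day 6 replicate 2 and was lost without any of 9 other libraries, and without sham day 6 replicate 1 the gene did not pass the filter. No single library could be marked as standing apart by a formal rule, since the groups hold 3 libraries.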

How the results depend on the processing

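No called result changed direction under any alternative run, while uncalled ones did, such as Krt84 at day 6 when 1 library was left out (-0.79 to 0.38). With a pseudocount of 1 TPM, the calls at day 6 fell to 1 higher (Krtap3-2) and 0 lower, and those of CAP wounds between days to 1 higher. The difference of effects gave 1 greater (Krt32) and 0 smaller. Over all genes this gave 157 higher and 228 lower of 18323 at day 6, and 144 of 18202 higher in CAP between days. For the difference of effects it gave 246 greater and 334 smaller of 20267. Without a filter there was 1 member called higher at day 3 (Krtap4-9), and 2 higher and 1 lower in sham between days. There was also 1 lower in CAP between days (Krtap4-9), and 5 had a smaller effect at day 6. The counts over all genes were 210 of 29430 higher at day 3, and 653 higher and 503 lower of 29496 in sham between days. They were 443 of 29535 lower in CAP between days and 663 of 31752 with a smaller effect. With the filter in at least 1 group there were 4 lower at day 6 (Krt25, Krt28, Krt71 and Krt75), and 2 higher and 1 lower in sham between days (Krt28 and Krt84, and Krt36). All of these but Krt75 and Krt84 entered only by the group where they were high, so the filter set their direction. Over all genes that filter gave 572 of 19667 lower at day 6, and 579 higher and 426 lower of 19800 in sham between days. The joint fit left 1 higher at day 6 (Krtap3-2), against 266 of 18323 genes, and median-ratio scaling 0 lower, against 310 of 18337. Leaving out 1 library gave 1 to 3 higher and 0 to 1 lower at day 6, against 140 to 458 and 171 to 1025 of all genes. It gave 0 to 3 higher in sham between days, against 342 to 540 of all genes. In CAP between days it gave 2 to 4 higher and 0 to 1 lower, against 198 to 352 and 149 to 534 of all genes. For the difference of effects it gave 0 to 1 greater and 0 to 11 smaller, against 348 to 662 and 288 to 1115 of all genes. The 11 were found in the fit without sham day 6 replicate 2. That fit called 453 greater and 514 smaller of 20366 genes. Members such as Krt31 and Krt35 entered it only by the sham day 6 group, so the filter set their direction. The cause of these changes was not tested.

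Replicate numbers did not pair the libraries: deviations of same-numbered libraries correlated at -0.17 to 0.289. With the replicate block there were 0 lower at day 6, 2 higher in CAP between days (Krt32 and Krt84) and 2 with a smaller effect at day 6 (Krt71 and Krtap11-1). The counts over all genes were 460 of 18323, 241 of 18202 and 626 of 20267, in that order. Of 605 values of single members under alternatives, 544 stayed on their side of the threshold, 40 lost and 21 gained it. The 605 include members not called in the main fits, and only called ones could lose the threshold. Fits in which a member failed the filter are not counted. The 544 are therefore not the number of called results that held. Unknown depth, 3 libraries per group and levels near 0 limit what these tests can show.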
